A study of Mus musculus with 4 samples.

Results

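The MAP kinase phosphatases are the dual-specificity phosphatases that switch off mitogen-activated protein (MAP) kinases, and their transcripts were followed in mouse brain after permanent middle cerebral artery occlusion (PMCAO). The members were chosen by gene name from a list of 10 genes: Dusp1, Dusp2, Dusp4, Dusp5, Dusp6, Dusp7, Dusp8, Dusp10, Dusp14 and Dusp16. Of these, 9 had a probe under their current or an older symbol, with 14 probes among 41174 non-control probes, and all 9 were among the 19127 genes tested. Dusp5 was not analysed here. Male C57BL/6J mice of 8 to 12 weeks were anaesthetised with isoflurane, had the right neck vessels exposed, and received saline into the cerebral ventricle. In the PMCAO arm a nylon filament was pushed up to the middle cerebral artery and left there, a model of ischemic stroke, whereas in the sham arm the wound was closed without a filament. Brains were taken 6 h or 24 h after the injection from groups of 3 mice, and each time was covered by 2 Agilent two-colour arrays of opposite dye orientation, with PMCAO and sham RNA on the same array. The submitters' design text names the hemisphere opposite the occluded artery as the tissue on the arrays, while the sample labels say only brain. Nothing in the labels tells whether RNA of the 3 mice was pooled, or whether sample 1 and sample 2 of a time come from separate extracts. A p-value therefore reflects the scatter of arrays alone, and that scatter may be purely technical.

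MAP kinases such as ERK, JNK and p38 carry signals from growth factors, synaptic activity and stress to the nucleus. They are active only while a threonine and a tyrosine of their activation loop are both phosphorylated, and a MAP kinase phosphatase removes both phosphates. Many of these phosphatases are themselves transcribed in response to MAP kinase signalling, which makes them components of negative feedback loops. In brain several of them are known as genes induced by neuronal activity, seizures and ischemia.

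Short stretches of the probes are shown first, because the results turn on these probes and because several genes were read by more than 1 of them. Each line gives the first 30 of 60 bases, 5′ to 3′, with the position and strand of the probe in mouse build mm7 as the scanner files give them. Spans shorter than 60 bases are as deposited. Gene annotation of that build was not used here, so no exon is named.

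Dusp1 A_51_P430900, chr17:24690398-24690455 (-): gcgtatgagagtttttacctttatttattt
Dusp2 A_52_P399934, chr2:127079047-127079106 (+): gtgggcatctcgctgtaattggtgctgaaa
Dusp4 A_51_P347333, chr8:33583106-33583165 (+): tcaagggacttcagtaagataacaatgcaa
Dusp4 A_51_P518051, chr8:33580345-33580404 (+): aataacggcggtttccgctgccagagaaga
Dusp6 A_51_P502614, chr10:98828759-98828818 (+): catttggtggatgcaacaggttgagaggaa
Dusp14 A_52_P297724, chr11:84118020-84118079 (-): ttctataagttaagttcattgttgtttagt
Dusp14 A_51_P322677, chr11:84118697-84118756 (-): tattgcgtacctgatgaaattccacaatct
Dusp16 A_51_P242634, chr6:134729960-134730000 (-): gtacaaaatggtgattttgagcaaaactag
Dusp16 A_52_P374825, chr6:134751853-134751912 (-): ggctcttagccagaataatgacttaagttt

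Both Dusp4 probes and both Dusp14 probes lie apart on the same strand of their chromosome. The Dusp14 probes are listed under the same transcript, whereas the Dusp4 probes are listed under different database entries. Whether both Dusp4 probes read the same transcript was not checked. The Dusp16 probes carry different transcript accessions in the files, NM_130447 for A_51_P242634 and NM_181320 for A_52_P374825. Of the 14 probes, 13 were well above background in all 8 channels. The exception was another Dusp16 probe, A_52_P492081, at 3 of 8. Where a gene had several probes, the brightest stood for it, and values below are from that probe unless another is named.

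All values are log2 ratios of PMCAO over sham unless a level is named, the error is the standard error of the limma model with n = 2 arrays per time, and a change is called at a Benjamini-Hochberg adjusted p under 0.05 over all genes tested. Per channel, 65.5% to 73% of the spots exceeded background. The log2 ratios of both arrays of a time correlated at 0.582 (6 h) and 0.671 (24 h) over genes, and genes are not replicates. Neuron markers had 0 of 11 called in limma at either time (0 at an unadjusted p under 0.05), and all 11 were well above background in this tissue labelled brain. The median of the neuron markers at 24 h was -0.16, beside 0.00 for all genes. Some of them differed in sign between the 24 h arrays, such as Rbfox3 at -0.40 and 0.87. Neutrophil and monocyte markers had 3 of 13 higher at 6 h and 11 of 13 at 24 h.

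The occluded mice carried more Dusp1 and Dusp2 transcript than sham mice at 24 h, and less Dusp6. Dusp1 stood at 0.77 ± 0.12, or 1.71-fold higher, and Dusp2 at 0.73 ± 0.11, or 1.66-fold higher. Dusp6 stood at -0.52 ± 0.10, or 1.43-fold lower. At 6 h no member passed the test, but 5 members lay between 0.46 and 0.70, namely Dusp1, Dusp2, Dusp4, Dusp6 and Dusp14. Dusp6 and Dusp14 changed between the times, from above sham at 6 h to below sham at 24 h. Dusp7, Dusp8, Dusp10 and Dusp16 passed in none of the 5 comparisons with all 4 arrays as processed here and modelled without the sample number.

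**Figure D1:**
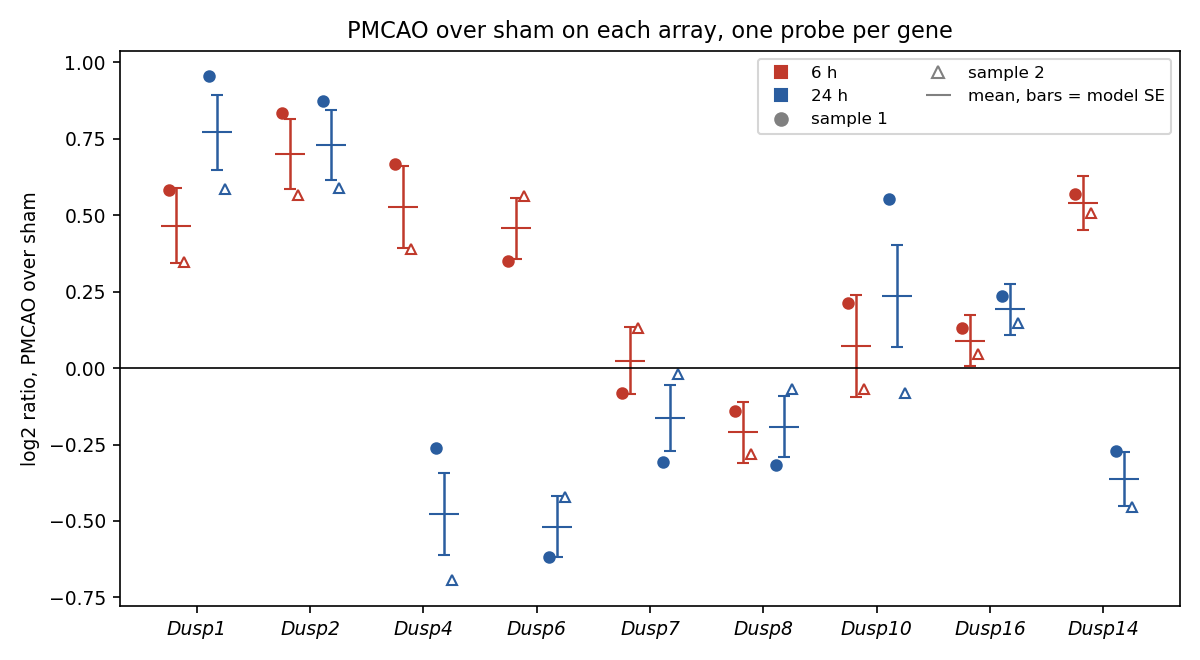
Log2 ratio of PMCAO over sham (vertical axis) for the 9 measured genes (horizontal axis) at 6 h (red) and 24 h (blue). Circles are sample 1, triangles sample 2, dashes the mean of both arrays and bars the model SE. Dusp1 and Dusp2 lie above 0 on all 4 arrays, whereas Dusp4, Dusp6 and Dusp14 lie above 0 on both 6 h arrays and below 0 on both 24 h arrays.

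Dusp1, Dusp2 and Dusp4 encode nuclear phosphatases whose genes are rapidly inducible. Dusp1, also called MKP-1, acts on p38, JNK and ERK. Its ratio was 0.58 and 0.35 on the 6 h arrays, a mean of 0.47 ± 0.12 with an adjusted p of 0.277. At 24 h the arrays read 0.96 and 0.59, a mean of 0.77 ± 0.12 with an adjusted p of 0.0173. All 4 values were above 0, and the higher 6 h value, 0.584, lay just under the lower 24 h value, 0.587. Its 24 h minus 6 h difference was 0.31 ± 0.17, with a 95% interval from -0.13 to 0.74 and an adjusted p of 0.529.

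Dusp2, also called PAC-1, was first described in activated lymphocytes and acts on ERK and p38. It had the largest 6 h ratio of the family, 0.84 and 0.57 on the arrays and 0.70 ± 0.11 on average, with an adjusted p of 0.0846. At 24 h the arrays gave 0.87 and 0.59, a mean of 0.73 ± 0.11 with an adjusted p of 0.0167. The readings of the 2 times almost coincided, and their difference was 0.03 ± 0.16, with an interval from -0.37 to 0.43. In bulk tissue, more cells of a type and more RNA per cell cannot be told apart, for Dusp2 as for every gene here. Of the lymphocyte markers, Cd3g, Cd8a and Cd79a were not well above background in any channel, and 1 of the 4 tested was higher at 24 h, Ptprc, the common leukocyte antigen.

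Dusp4, also called MKP-2, is a nuclear phosphatase of ERK and JNK. Its arrays read 0.67 and 0.39 at 6 h, a mean of 0.53 ± 0.13 with an adjusted p of 0.262. At 24 h they read -0.26 and -0.69, a mean of -0.48 ± 0.13 with an adjusted p of 0.0825. Thus both 6 h arrays were above 0 and both 24 h arrays below it, without overlap between the times. The difference of -1.01 ± 0.19 was the largest of the family and missed the threshold, with an adjusted p of 0.0832 and an interval from -1.48 to -0.53.

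Dusp6, also called MKP-3, is a cytoplasmic phosphatase selective for ERK and a widely used readout of ERK activity. Its ratio was 0.35 and 0.56 at 6 h, a mean of 0.46 ± 0.10 with an adjusted p of 0.185. The 24 h arrays gave -0.62 and -0.42, a mean of -0.52 ± 0.10 with an adjusted p of 0.0296. The groups did not overlap, and the difference between the times, -0.98 ± 0.14, passed with an adjusted p of 0.0441. Dusp7, the other cytoplasmic ERK phosphatase measured, read -0.08 and 0.13 at 6 h and -0.31 and -0.02 at 24 h. Its means of 0.02 ± 0.11 and -0.16 ± 0.11 had intervals from -0.25 to 0.30 and from -0.44 to 0.11, so a change of the size seen for Dusp6 lay outside both.

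Dusp8, Dusp10 and Dusp16 encode phosphatases that prefer the stress kinases JNK and p38. Dusp8 lay below 0 on all 4 arrays, at -0.14 and -0.28 at 6 h and at -0.32 and -0.07 at 24 h. Its means were -0.21 ± 0.10 and -0.19 ± 0.10, with adjusted p-values of 0.683 and 0.276. Dusp10 differed most between arrays, at 0.21 and -0.07 at 6 h and 0.55 and -0.08 at 24 h. The 24 h mean of 0.24 ± 0.17 had an interval from -0.18 to 0.65, the widest of the family at that time. Dusp16 read 0.13 and 0.05 at 6 h and 0.24 and 0.15 at 24 h, with means of 0.09 ± 0.08 and 0.19 ± 0.08 and adjusted p-values of 0.965 and 0.2.

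Dusp14, also called MKP-6, is a small phosphatase that lacks the kinase-docking domain of the others and is usually placed with the atypical DUSPs. It had close readings at 6 h, 0.57 and 0.51, a mean of 0.54 ± 0.09 with an adjusted p of 0.0858. At 24 h the arrays gave -0.27 and -0.45, a mean of -0.36 ± 0.09 with an adjusted p of 0.0572. The times did not overlap. Its difference of -0.90 ± 0.13 passed with an adjusted p of 0.0413.

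Counts of members called are given beside the share of all genes called. Of 9 members 0 were called higher at 6 h in limma, against 0.816% of all genes, and 5 were higher at an unadjusted p under 0.05, against 6.16%. The members' median was 0.46, while that of all genes was -0.01. At 24 h, 2 of 9 were higher, against 7.84%, and 1 of 9 lower, against 4.52%, with a median of -0.16 for the members and 0.00 for all genes. With Agilent's own processed signals the calls over all genes split into 1242 higher and 1166 lower at 24 h, in place of 1499 and 864. Some members crossed over: Dusp4, Dusp6 and Dusp14 lay above 0 on both 6 h arrays and below 0 on both 24 h arrays, 3 of 9 against 5.52% of genes. Each of these 3 also had an unadjusted p under 0.05 in both directions, against 0.35% of genes. Dusp1 and Dusp2 were higher at both times at that level, 2 of 9 against 4.29%. Ratios above 0 on all 4 arrays were found for 3 of 9 members, Dusp1, Dusp2 and Dusp16, against 16% of genes, and below 0 on all 4 for Dusp8, against 13.8%.

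With the 6 h arrays fitted alone, Dusp1, Dusp2, Dusp4, Dusp6 and Dusp14 all passed at 6 h, and 940 genes were higher and 354 lower in place of 156 and 7. In that fit the members' p-values followed the size of the ratio alone, however close or far apart a gene's arrays lay. A pass there is thus a cut-off on size and does not reflect a gene's own scatter. Leaving out 24 h sample 1 or 24 h sample 2 gave the same 6 h values, since a lone 24 h array adds nothing to the spread. At 24 h all 3 calls in limma were lost with median centring in place of loess (0 members at an unadjusted p under 0.05), where Dusp1 read 0.62, Dusp2 0.62 and Dusp6 -0.70. Without 24 h sample 1 the 24 h ratio was -0.69 for Dusp4 and -0.45 for Dusp14. Without 24 h sample 2 that of Dusp10 was 0.55. In both of these fits, too, the members' p-values followed the size of the ratio alone.

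Between the times, the ratio of 2 of 9 members fell, Dusp6 and Dusp14, against 0.298% of all genes called lower, and 0 of 9 were called higher in limma (0 at an unadjusted p under 0.05), against 1.29% of all genes (7.68% unadjusted). The members' median difference was 0.02 and that of all genes 0.01. Dusp4, at -1.01, had the largest fall and did not pass. The remaining members lay between -0.19 for Dusp7 and 0.31 for Dusp1. Both calls, for Dusp6 and Dusp14, sat close to the threshold. They were lost with Agilent's processed signals, where Dusp6 read -1.002 with an adjusted p of 0.0827 and Dusp14 -0.93 with an adjusted p of 0.0899. They were also lost with median centring, at -1.23 for Dusp6 and -1.13 for Dusp14, and when either 6 h array was left out: Dusp6 then read -1.08 without sample 1 and -0.87 without sample 2, and Dusp14 -0.87 and -0.93. Without 24 h sample 1 the difference was -1.22 for Dusp4, -0.88 for Dusp6 and -0.99 for Dusp14. Without 24 h sample 2 it was -0.79, -1.07 and -0.81 for these genes, and 0.49 for Dusp1.

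A ratio can move because either arm moved, so each arm was also followed between the times in a separate-channel model of the same arrays, after scaling between arrays. In the PMCAO arm Dusp4, Dusp6 and Dusp14 each fell from 6 h to 24 h, while their changes in the sham arm, from 0.01 to 0.10 on the probes that stood for them, did not pass. In the sham arm the member that passed was Dusp1, which fell. Levels below are log2 values of a probe's normalised signal and are compared only within a probe.

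Dusp4 levels in PMCAO were 11.33 and 11.19 at 6 h and 10.36 and 10.16 at 24 h. The change was -0.999 ± 0.10 with an adjusted p of 0.000502, or 2.00-fold. In sham the levels were 10.66 and 10.80 at 6 h and 10.62 and 10.86 at 24 h, a change of 0.01 ± 0.10. PMCAO at 24 h was therefore the lowest of the 4 groups, below every sham channel. Dusp6 in PMCAO went from 14.47 and 14.64 to 13.63 and 13.72, a change of -0.88 ± 0.08 with an adjusted p of 0.000357. Its sham channels read 14.12 and 14.08 at 6 h and 14.25 and 14.14 at 24 h, a change of 0.09 ± 0.08. The order of the groups was the same as for Dusp4, with PMCAO highest at 6 h and lowest at 24 h.

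Dusp14 levels in PMCAO were 13.07 and 13.03 at 6 h and 12.29 and 12.22 at 24 h, a change of -0.80 ± 0.07 with an adjusted p of 0.000282. In sham they were 12.50 and 12.52, then 12.56 and 12.67, a change of 0.10 ± 0.07. Again no PMCAO channel overlapped with sham at either time. These 3 of 9 members compare with 9.44% of all genes called lower in the PMCAO arm. Dusp2 in that arm changed by -0.27 ± 0.09, with an adjusted p of 0.0624, and Dusp10 by 0.31 ± 0.13, with an adjusted p of 0.127. With loess alone and no scaling between arrays, 0 members passed in limma (3 at an unadjusted p under 0.05), at -0.79 for Dusp4, -0.70 for Dusp6 and -0.59 for Dusp14, while all genes split into 110 higher and 14 lower in place of 2099 and 1805.

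Dusp1 levels in sham were 11.40 and 11.51 at 6 h and 10.89 and 11.12 at 24 h, a change of -0.45 ± 0.09 with an adjusted p of 0.0434. In PMCAO they were 11.98 and 11.86 at 6 h and 11.85 and 11.71 at 24 h, a change of -0.14 ± 0.09 with an adjusted p of 0.33. The sham change passed the test and the PMCAO change did not. That does not show that the arms differed: the direct test of the difference, 0.31 ± 0.17, did not pass (limma, adjusted p 0.529). With loess alone and no scaling between arrays, the PMCAO change of Dusp1 turned to 0.06. Sham calls covered 1 of 9 members, against 1.73% of genes called lower. Dusp2 read -0.30 ± 0.09 in sham with an adjusted p of 0.102, close to its -0.27 in PMCAO. Dusp1 in sham missed the threshold without 6 h sample 1, at -0.50, without 6 h sample 2, at -0.39, without 24 h sample 1, at -0.33, with loess alone, at -0.24, and with no filter on dim probes, at -0.45.

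**Figure D2:**
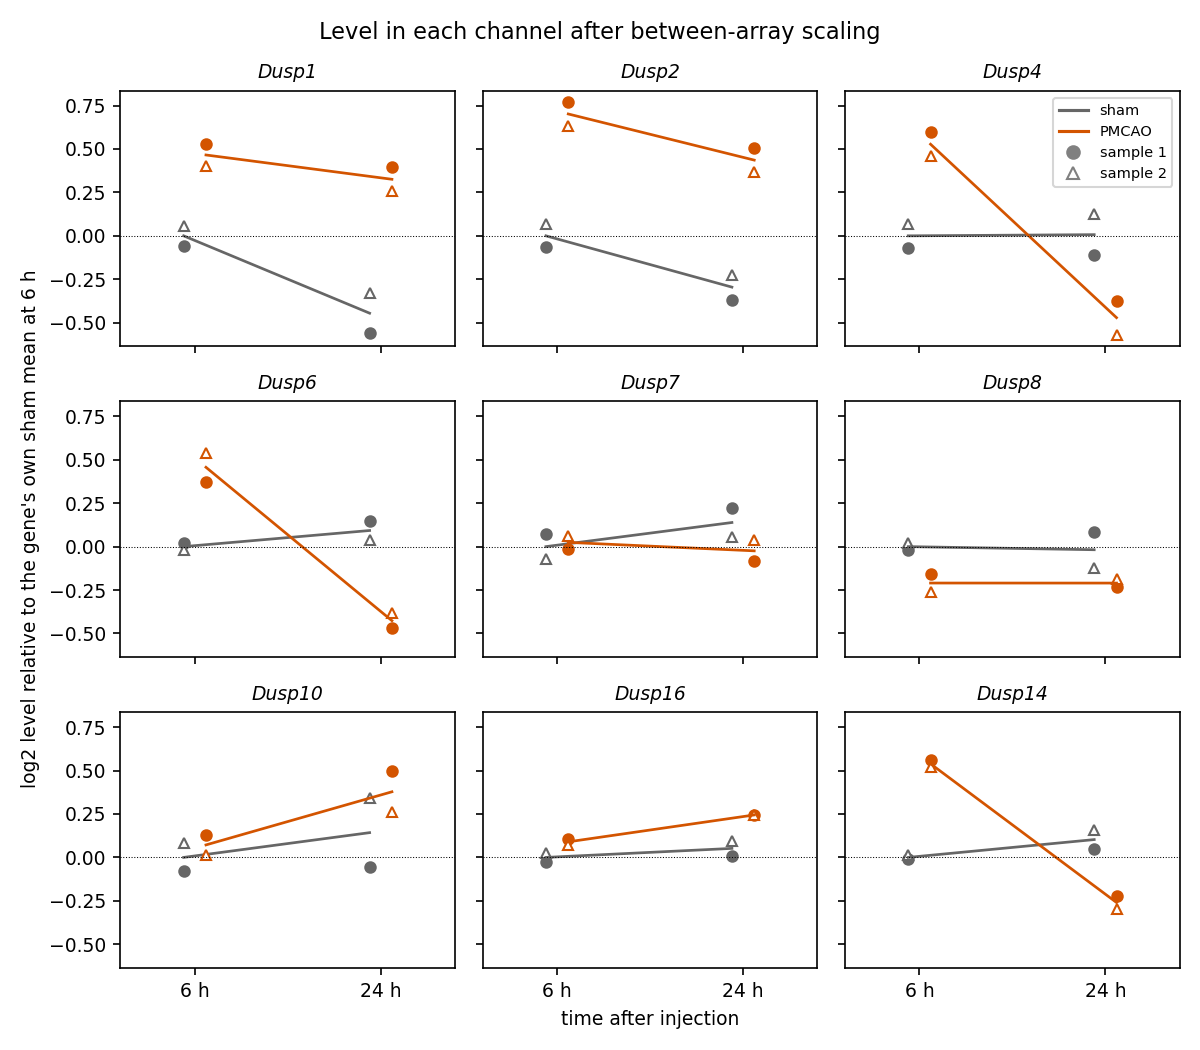
Log2 level of each gene relative to its own sham mean at 6 h (vertical axis) in sham (grey) and PMCAO (orange) at 6 h and 24 h (horizontal axis), with lines joining group means of 2 arrays, circles for sample 1 and triangles for sample 2. The PMCAO line of Dusp4, Dusp6 and Dusp14 crosses the sham line, while for Dusp1 and Dusp2 it stays above it. The lines of Dusp7 also cross, with PMCAO at 0.02 and sham at 0 at 6 h, then -0.02 and 0.14 at 24 h.

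The second probes of Dusp4 and Dusp14 repeated the crossing. Fitted on its own, Dusp4 probe A_51_P518051 stood at 0.73 ± 0.10 at 6 h, from 0.66 and 0.80, and at -0.22 ± 0.10 at 24 h, from -0.11 and -0.32. Its difference was -0.94 ± 0.13, with an adjusted p of 0.054 over all probes. Its fall in the PMCAO arm was -1.04 ± 0.10, with an adjusted p of 0.0005. Dusp14 probe A_51_P322677 read 0.48 and 0.59 at 6 h and -0.46 and -0.11 at 24 h, with a difference of -0.82 ± 0.16 and an adjusted p of 0.102. Its PMCAO arm changed by -0.51 ± 0.13 with an adjusted p of 0.0316, and its sham arm by 0.31 ± 0.13 with an adjusted p of 0.235. Both genes thus had the same direction at separate probe positions, with smaller 24 h ratios on the second probe. When every probe was tested separately the Dusp6 difference had an adjusted p of 0.0551 and that of Dusp14 probe A_52_P297724 0.0512, so no member was called for the difference there.

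Probes of the stress-kinase phosphatases did not read alike. For Dusp16 at 24 h, A_51_P242634 gave 0.19 ± 0.08 and A_52_P492081, the probe near background, gave 0.39 ± 0.12, whereas A_52_P374825 gave -0.19 ± 0.13 with arrays at 0.05 and -0.42. None of the 3 passed, and the difference between them was not tested. For Dusp8, the probe that stood for the gene carries the older name 5530400B01Rik in the scanner files, and its other probe, A_51_P263246, spread from -0.61 to 0.46 at 24 h. At 6 h that other probe read -0.29 and 0.05, so it was not below 0 on every array. Between the times it changed by -0.67 ± 0.20 in sham (limma, adjusted p 0.104) and by -0.63 ± 0.20 in PMCAO (adjusted p 0.0586). On A_51_P114314 these changes were -0.02 ± 0.09 and -0.0002 ± 0.09. The Dusp8 values in the earlier paragraphs are those of A_51_P114314.

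**Figure D3:**
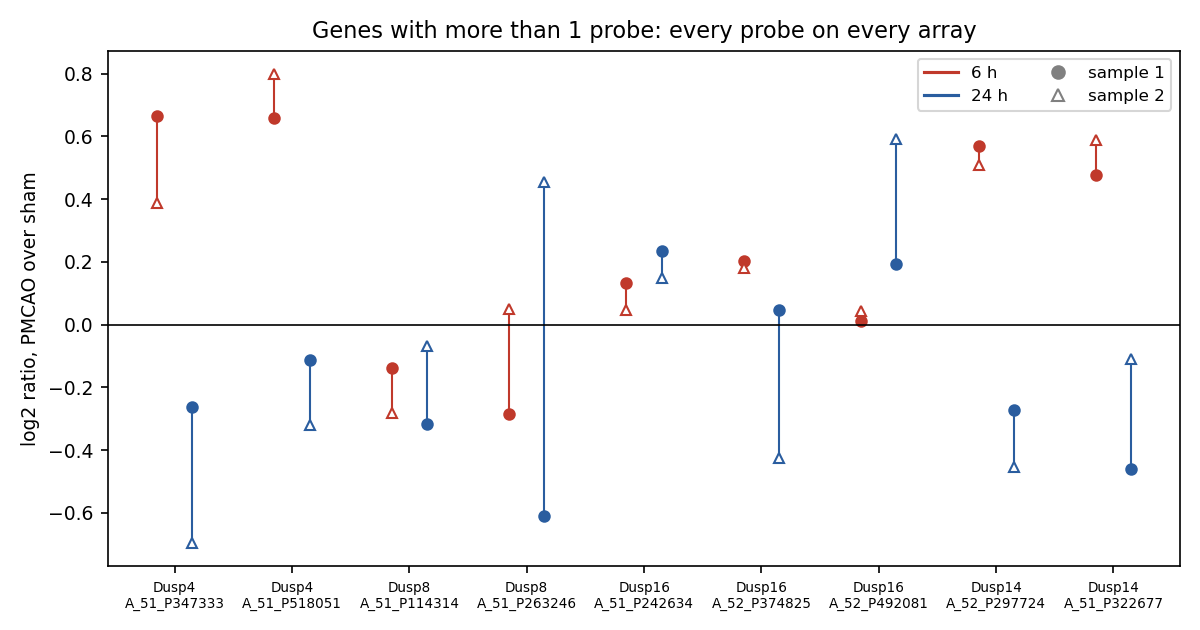
Log2 ratio of PMCAO over sham (vertical axis) on every array for every probe of the genes with more than 1 probe (horizontal axis), at 6 h (red) and 24 h (blue), with circles for sample 1, triangles for sample 2 and a line joining the 2 arrays of a time. Both probes of Dusp4 and of Dusp14 lie above 0 at 6 h and below 0 at 24 h, while probe A_51_P263246 of Dusp8 runs from -0.61 to 0.46 at 24 h.

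Promoter sequence was examined for the genes that moved together, since Dusp1 is a textbook target of the cyclic AMP response element. RefSeq windows of assembly GRCm38.p6, from 250 bases before to 50 bases after the gene start, were found for 9 of the 10 listed genes, all but Dusp4. The motifs searched on both strands were the full element TGACGTCA, its shorter core TGACG, the AP-1 site TGACTCA and the serum response CArG box. A full element always contains 2 overlapping cores, 1 on each strand. The upstream 250 bases of Dusp1 and Dusp2, which stayed above sham, and of Dusp6, which crossed, are printed 5′ to 3′ on the strand of the gene, with full elements and cores in capitals.

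Dusp1, chr17:26508473-26508722 (-): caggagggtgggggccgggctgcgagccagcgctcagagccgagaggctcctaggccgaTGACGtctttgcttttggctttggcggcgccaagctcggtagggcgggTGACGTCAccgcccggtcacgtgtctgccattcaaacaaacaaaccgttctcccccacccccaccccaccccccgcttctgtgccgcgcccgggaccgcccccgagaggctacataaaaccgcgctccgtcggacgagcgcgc
Dusp2, chr2:127335909-127336158 (+): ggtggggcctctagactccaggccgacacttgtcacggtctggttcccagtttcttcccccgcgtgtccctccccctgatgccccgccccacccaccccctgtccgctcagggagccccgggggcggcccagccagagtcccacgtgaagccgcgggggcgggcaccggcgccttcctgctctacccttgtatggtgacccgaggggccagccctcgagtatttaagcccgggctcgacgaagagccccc
Dusp6, chr10:99262981-99263230 (+): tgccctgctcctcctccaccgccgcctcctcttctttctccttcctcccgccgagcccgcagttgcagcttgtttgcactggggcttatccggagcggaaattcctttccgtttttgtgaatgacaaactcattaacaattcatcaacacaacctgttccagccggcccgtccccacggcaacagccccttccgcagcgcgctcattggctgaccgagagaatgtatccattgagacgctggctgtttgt

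Dusp1 held the full element, which 1.79% of 32851 windows hold, from position -143 to -136 before the start, and a further core from -191 to -187. Cores occur in 20.8% of windows. The Dusp2 window had a core on the opposite strand just after the start, outside the printed stretch. Those of Dusp6, Dusp7, Dusp10 and Dusp14 held none of the 4 motifs. The window of Dusp8 held 2 full elements. Dusp16 held a core. Dusp5 held 2 CArG boxes, which 1.63% of windows hold, and a core on the opposite strand from -55 to -51. AP-1 sites, in 5.2% of windows, were found in none of these 9. These are matches of letters in a short window and were not related to the changes by any test.

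Among the other dual-specificity phosphatases, those outside the list, 13 of 15 were tested. At 6 h 0 of 13 passed in limma (0 at an unadjusted p under 0.05), and their median was -0.05. At 24 h 0 of 13 were lower in limma (2 at an unadjusted p under 0.05), against 4.52% of all genes. At that time 1 of 13 was higher, against 7.84%, namely Dusp28, at 0.57 ± 0.10 from arrays of 0.59 and 0.55. Dusp28 read -0.12 ± 0.10 at 6 h. In the PMCAO arm 4 of 13 fell between the times, against 9.44% of all genes. They were Dusp18, Dusp19, Dusp15 and Dusp3, and 1 of them, Dusp18, also fell in sham. Dusp3, also called VHR, an atypical phosphatase of ERK and JNK, changed by -0.62 ± 0.13 in PMCAO. Dusp9, a further cytoplasmic ERK phosphatase, read -0.03 ± 0.10 at 6 h and 0.00 ± 0.10 at 24 h. None of these 13 lay above 0 on both 6 h arrays and below 0 on both 24 h arrays. Only 5.52% of all genes did so, so a list of this size may hold none. The difference between the groups of genes was not tested.

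Many immediate early genes and transcriptional targets of ERK signalling changed. Of 28 tested, 9 rose and 0 fell in limma at 6 h (1 lower at an unadjusted p under 0.05), with a median of 0.48 beside -0.01 for all genes. Of all genes 0.816% were called higher at that time. At 24 h 15 rose and 5 fell, against 7.84% and 4.52% of all genes, with a median of 0.69 beside 0.00. Atf3, a stress-induced transcription factor, read 2.66 ± 0.13 at 6 h and 3.21 ± 0.13 at 24 h. Fosb, an AP-1 subunit, read 2.11 ± 0.11 and then 0.96 ± 0.11. Ccn1, a matrix-associated signalling protein, read 1.63 ± 0.10 and 2.35 ± 0.10, Plaur, the urokinase receptor, 1.72 ± 0.11 and 2.60 ± 0.11, and Zfp36, an RNA-binding protein that destabilises cytokine transcripts, 1.19 ± 0.08 and 1.82 ± 0.08. The list held genes that stayed high, as Dusp1 and Dusp2 did, and genes that crossed over.

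The 5 targets that fell at 24 h were named after their values were seen. They were Egr1, Egr2 and Egr3, zinc finger transcription factors induced by ERK, Arc, a synaptic protein induced by activity, and Etv5, a transcription factor that, like Dusp6, is switched on by ERK. Egr1 read 0.51 and 0.23 at 6 h and -0.54 and -0.73 at 24 h, and its difference was -1.004 ± 0.15. Egr2 read 0.28 and 0.35, then -0.54 and -0.74, with a difference of -0.95 ± 0.13. Egr3 read 0.49 and 0.58, then -0.55 and -0.43, with a difference of -1.03 ± 0.12. All 3 were above sham on both 6 h arrays and below it on both 24 h arrays, with differences close in size to those of Dusp4, Dusp6 and Dusp14. Arc and Etv5 lay below 0 on all 4 arrays, with 24 h means of -0.52 ± 0.08 and -0.72 ± 0.10.

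**Figure D4:**
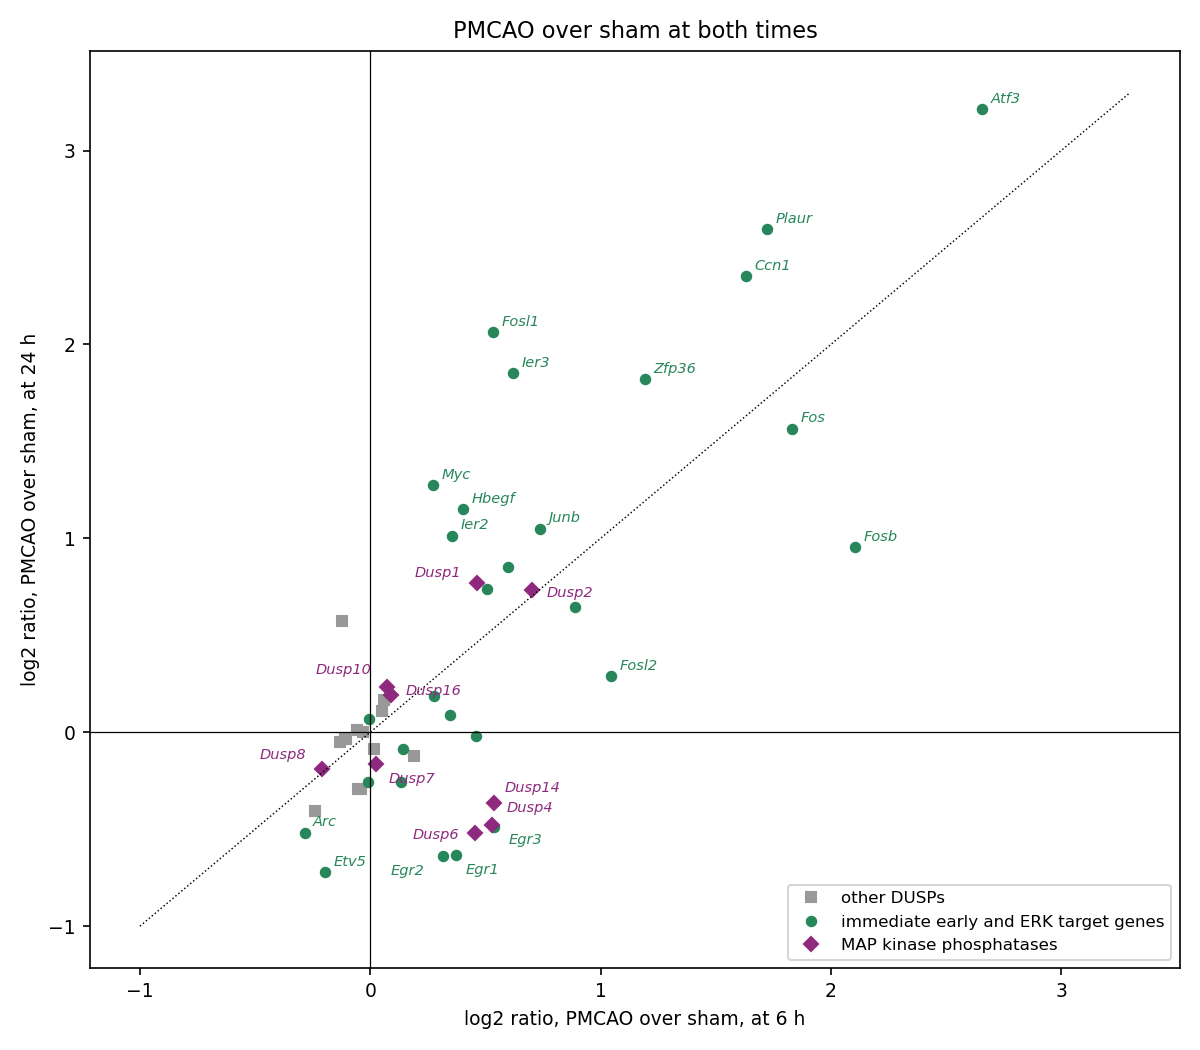
Log2 ratio of PMCAO over sham at 24 h (vertical axis) against 6 h (horizontal axis) for the 9 phosphatases (purple diamonds), 28 immediate early and ERK target genes (green circles) and 13 other dual-specificity phosphatases (grey squares), with a dotted line of equal ratios. Dusp4, Dusp6 and Dusp14 lie beside Egr1, Egr2 and Egr3 at the lower right, with 6 h means from 0.32 to 0.54 and 24 h means from -0.64 to -0.36.

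In sham, 0 of the 28 targets rose between the times in limma (4 at an unadjusted p under 0.05), against 1.87% of all genes. Between the same times 7 fell, against 1.73%. They included Fos at -0.73 ± 0.14, Junb at -0.75 ± 0.07 and Fosb at -0.57 ± 0.10, beside the sham change of Dusp1. In PMCAO 8 rose and 9 fell, against 11% and 9.44% of all genes. Among those that fell were Egr1, Egr2 and Egr3 at -0.97 ± 0.08, -0.99 ± 0.08 and -1.37 ± 0.07, beside the falls of Dusp4, Dusp6 and Dusp14.

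Few transcripts of the kinases on which these phosphatases act passed the test. Of 19 MAP kinases and MAP kinase kinases, 0 passed at 6 h in limma (5 higher at an unadjusted p under 0.05), and 1 rose at 24 h, Map2k3, an activator of p38, at 0.59 ± 0.08. Of 17 MAP kinase kinase kinases, Map3k6 rose at 6 h, at 1.17 ± 0.10. At 24 h Map3k6 at 1.91 ± 0.10, Map3k14 at 0.52 ± 0.09 and Map3k8 at 0.66 ± 0.12 rose, while Map3k5, also called ASK1, fell, at -0.44 ± 0.08. Of 11 kinases activated by MAP kinases, 0 passed at 6 h in limma (2 at an unadjusted p under 0.05, 1 each way), and Mapkapk3, a kinase activated by p38, rose at 24 h, at 0.35 ± 0.08.

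Other inhibitors of the pathway behaved unevenly. Of 12 feedback inhibitors of receptor and ERK signalling, 2 rose at 6 h, Socs3, an inhibitor of cytokine receptors, at 1.60 ± 0.09, and Errfi1, an inhibitor of the epidermal growth factor receptor, at 1.25 ± 0.11. At 24 h 3 rose, Socs3 at 2.29 ± 0.09, Errfi1 at 1.37 ± 0.11 and Sh2b3 at 0.46 ± 0.08, and 1 fell, Spred2, an inhibitor of Ras to ERK signalling, at -0.58 ± 0.10. The tyrosine phosphatases that bind MAP kinases through the same docking motif, Ptpn5, Ptpn7 and Ptprr, had 0 of 3 called in limma at either time (0 at 6 h at an unadjusted p under 0.05). At 24 h all 3 were lower at that level, with a median of -0.35, beside the 24 h values of Dusp4, Dusp6 and Dusp14.

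Markers of several cell types moved with the 24 h results. The summed signal of 13 neutrophil and monocyte markers ran from 2358 to 2492 in sham and from 64828 to 75786 in PMCAO at 24 h, when 11 of 13 were higher. At 6 h it ran from 3293 to 3705 in sham and from 13392 to 14405 in PMCAO. Of 10 microglia markers, 4 were lower at 24 h, with a summed signal of 36607 to 38097 in sham and 31808 to 33744 in PMCAO. Of 9 endothelial markers, 3 were higher and 1 lower, with 40735 to 41727 in sham and 60663 to 61854 in PMCAO. Of 8 astrocyte markers 2 were higher, Gfap and Aldh1l1, with 251130 to 275260 in sham and 249515 to 273732 in PMCAO. Of 8 pericyte and smooth muscle markers 2 were higher, Kcnj8 and Abcc9, with 19481 to 20554 in sham and 23560 to 24761 in PMCAO. Of 2 red cell markers 1 was higher, Hba-a1, with 20804 to 22120 in sham and 30241 to 31157 in PMCAO. The neuron markers summed to 297569 to 304573 in sham and 265699 to 275165 in PMCAO at 24 h. In the PMCAO arm between the times, beside the falls of Dusp4, Dusp6 and Dusp14, the microglia markers P2ry12, Siglech and Gpr34 fell and Cx3cr1 rose, and the pericyte marker Rgs5 fell while 3 others rose. The oligodendrocyte marker Olig1 also fell there. Of the choroid plexus markers, Ttr fell, as it did in sham, and Aqp1 rose. Of the 13 neutrophil and monocyte markers 10 rose in the PMCAO arm, and of the 9 endothelial markers 5 rose. The part of these cell types in the changes of Dusp1, Dusp2, Dusp4, Dusp6 and Dusp14 was not tested.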

How the data were processed

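The authors deposited 1 scanner table per array, with spot intensity columns and the scanner's log10 ratio (Cy5 over Cy3). Feature Extraction 9.5.3.1 wrote them, per the file headers. In the deposited series table, used as an alternative, the size of each value matched processed Cy5 over Cy3 as a ratio for 100% of probes (tolerance 0.006). Its signs were negative on sample 1 and positive on sample 2, with unstated meaning.

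Normexp (offset 50) on mean signal and local background was followed by loess within arrays (limma 3.58.1, R 4.3.3), with control spots at weight 0. Outlier spots (112 to 142 an array) were dropped, and ratios turned to PMCAO over sham. Testing required a probe well above background on each array of some RNA group, out of 4, leaving 19127 of 27670 names. RefSeq names (GRCm38.p6) came by accession for 22951 probes, symbol for 6659 and older symbol for 3109, and 8455 kept the file's name. All 4 arrays shared 1 slide and 1 scan, so no batch could be tested. Both times shared 1 spread (2 residual, 3.53 prior degrees of freedom). Arms were compared between times by a separate-channel model after Aquantile scaling (intraspot correlation -0.413, 19117 genes). Few arrays limit the precision. Code was tested on simulated arrays, and alternatives are given in the closing section.

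Members and lists were chosen with earlier results of these data known. All members and probes are named. From each pathway list, members past the test at 6 h or 24 h were named, at most the 4 with the smallest p per time. Others were chosen after their values were seen. Plots used matplotlib 3.10.9 under Python 3.11.15.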

Additional observations from a re-analysis of the deposited data

Results flagged for a closer look

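The response to occlusion was called different between 6 h and 24 h for 2 genes, by a test of the difference itself. The 24 h minus 6 h difference in the log2 ratio of PMCAO over sham was -0.98 for Dusp6 (limma, adjusted p 0.0441) and -0.90 for Dusp14 (adjusted p 0.0413). Each ratio was above 0 on 2 of 2 arrays at 6 h and below 0 on 2 of 2 arrays at 24 h. Both calls sat close to the threshold, and each was lost in 5 of 10 alternative settings. Dusp4 crossed likewise, and its larger difference of -1.01 missed the threshold (limma, adjusted p 0.0832). Groups of 2 arrays are too small for a search for outlying samples.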

How the results depend on the processing

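Over 450 comparisons of a member's value with an alternative setting, 390 kept their side of the threshold, 21 lost a call, 39 gained one, and no called value changed sign, while 27 uncalled values did. These comparisons are not independent, and many are of uncalled members that stayed uncalled. The deposited series table nearly repeats Agilent's processed signals. The 6 h values without either 24 h array are those of the 6 h arrays alone. Counts of members called were 0 at 6 h, 3 at 24 h, 2 for the difference, 1 in sham and 3 in PMCAO. With median centring in place of loess the 24 h and difference counts in limma were 0 (0 at an unadjusted p under 0.05), and the median difference of all genes moved from 0.01 to -0.10. Agilent's processed signals and the deposited series table each gave 0 in limma for the difference (3 at an unadjusted p under 0.05), as did testing each probe separately, chosen after seeing the data. With the 6 h arrays alone 5 members were called at 6 h, in a fit where the members' p-values followed the size of the ratio alone. In limma, loess alone gave 0 in sham and 0 in PMCAO (0 and 3 unadjusted), and no filter on dim probes gave 0 in sham (2 unadjusted). Leaving out each array in turn gave 0 to 5 members at 6 h, 3 to 5 at 24 h, 0 to 4 for the difference, 0 to 1 in sham and 3 to 4 in PMCAO; the lone array of a time is then assumed to vary like the others, and a dye effect does not cancel.

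The sample number is shared across the times and is also the dye orientation, so it does not pair animals. As a replicate block it gave 5 members at 6 h (1131 genes higher and 571 lower in place of 156 and 7), 7 at 24 h (3913 and 3683 in place of 1499 and 864) and 3 for the difference (1685 and 1530 in place of 246 and 57). With a dye term it gave 2 in sham and 5 in PMCAO. Dusp10 and Dusp16 were among the 7 at 24 h, and Dusp10 was among the 5 in PMCAO. Deviations of same-numbered arrays correlated at 0.718 across genes, and sample 1 minus sample 2 had the same sign at both times for 8 of 9 members. At 6 h, 940 genes were higher with either of the 24 h arrays left out, 103 without 6 h sample 1 and 76 without 6 h sample 2.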
